A study of Mus musculus with 112 samples.

Results

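Snap25, Stx1a, Vamp1, Vamp2, Syt1, Syp, Syn1, Syn2 and Rab3a are genes of the machinery that stores transmitter in synaptic vesicles and releases it. They were chosen by name from that machinery, and a probe set (the group of oligonucleotides that reports a transcript) was used where the array annotation gave it exactly 1 gene symbol. Of the 9 genes, 8 had such a probe set, among 19938 genes in all. The only probe set for Vamp2, the main vesicle SNARE of the forebrain, carries the symbols of both Ubr3 and Vamp2, so no level is given for it. Each array measured RNA from the cerebral cortex of 1 male mouse, and each of 7 strains gave 8 CR and 8 control mice, 112 arrays in all. The strains were C57BL6/J, C3H/HeJ and their hybrid B6C3F1/J, and also CBA/J, Balbc/J, DBA/2J and 129S1/SvImJ. All mice came from 1 supplier, were housed singly and ate a purified diet at 84 kcal per week before the diets diverged, then received caloric restriction (CR) or the control diet starting at week 8 of age, and tissue was taken at week 22. The study asked which genes respond to CR in several strains. Per its methods food allotments varied by strain, with more food for Balbc/J in both diets and a further cut, made partway through, for C57BL6/J and 129S1/SvImJ under CR.

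Release works through a small set of interlocking proteins. Syntaxin 1A (Stx1a) and SNAP-25 (Snap25) on the plasma membrane zip together with a synaptobrevin (Vamp1 or Vamp2) on the vesicle, and this SNARE complex draws the membranes into fusion, while synaptotagmin 1 (Syt1) on the vesicle binds calcium and times the event. Synaptophysin (Syp) is an abundant protein of the vesicle membrane, synapsins (Syn1, Syn2) hold vesicles in a reserve cluster, and the small GTPase Rab3a marks vesicles that are ready to dock. In cerebral cortex most of these transcripts are made by nearly all neurons, whereas synaptobrevin 1 is known from fast-spiking interneurons and from hindbrain and spinal circuits.

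The promoters of Stx1a and Syn1 are shown because these were the members whose levels moved together most closely from array to array, as described further on. The 250 bases before each gene's start were taken from RefSeq on GRCm38.p6, the C57BL/6J assembly, and are written 5′ to 3′ on the gene's own strand. In the Stx1a stretch (chr5:135023232-135023481, + strand) the capitals mark TGACG, the core of a cyclic AMP response element, and GGGCGG, a GC box. In the Syn1 stretch (chrX:20920919-20921168, − strand) they mark TTCAGCACC, the left part of the RE1 element that the repressor REST binds, and TGACGTCA, a full cyclic AMP response element.
Stx1a: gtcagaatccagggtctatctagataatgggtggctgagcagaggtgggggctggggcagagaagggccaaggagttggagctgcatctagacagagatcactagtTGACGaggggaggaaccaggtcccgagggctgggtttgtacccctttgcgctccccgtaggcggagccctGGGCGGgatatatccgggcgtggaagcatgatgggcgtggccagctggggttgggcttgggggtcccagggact
Syn1: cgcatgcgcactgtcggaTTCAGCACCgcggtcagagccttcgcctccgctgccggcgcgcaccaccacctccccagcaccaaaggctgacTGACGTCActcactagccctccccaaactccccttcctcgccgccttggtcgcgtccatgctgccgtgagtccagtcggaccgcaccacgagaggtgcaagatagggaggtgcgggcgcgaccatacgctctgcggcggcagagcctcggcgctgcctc
Searched on both strands, TTCAGCACC was found in 0.301% of 32851 such stretches across all genes and TGACGTCA in 1.55%, and among the 7 members with a stretch both were found only in Syn1. The 7 members had 10 stretches in all, since some had more than 1. TGACG, which lies within TGACGTCA, was found in 17.8% of all stretches and in 3 of these 10, from Rab3a, Stx1a and Syn1. GGGCGG was found in 32.7% of all stretches and in 6 of these 10, from every member that has a stretch except Syn1. A match of letters describes the window and is no evidence of binding.

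The members were bright on these arrays. Values are log2 signal, so a difference of 1 is a doubling, and levels are not compared between genes because each probe set has its own response. Averaged over 112 arrays, signal ran between 9.61 for Stx1a and 13.07 for Snap25, against a median of 7.53 over all genes. Within the strain and diet groups, and leaving out the arrays described in the next paragraph, Syt1 was among the steadiest genes measured, with an SD of 0.062, smaller than that of all but 1.29% of genes. Rab3a (0.070), Snap25 (0.080) and Syp (0.080) were nearly as steady, and Syn1 (0.093) and Syn2 (0.11) also lay under the median gene (0.13). Stx1a (0.21) and Vamp1 (0.18) varied more between mice of one group than most genes did.

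A pair of control arrays carried markers of another brain region and are described first because they touch every result. B6C3F1/J control replicate 8 and C57BL6/J control replicate 6 had mean signals of 10.85 and 10.72 over 12 cerebellar markers such as Gabra6 and Pcp2, and the other 110 arrays lay between 6.70 and 8.36. Their means over 9 markers of cortical excitatory neurons were 8.26 and 8.10, and in the other arrays these were between 9.41 and 10.33. Over 12 genes of all neurons they were 10.26 and 10.09, against 10.36 to 10.63 elsewhere. Among the other 110, DBA/2J control replicate 8 had the highest cerebellar mean, at 8.36, and CBA/J CR replicate 6 was at 8.15. The rest of their groups reached 7.16 and 7.10. Stx1a was at 9.26 in the DBA/2J array, against 9.60 to 9.95 in its group, and at 9.65 in the CBA/J array, against 9.48 to 9.74. Both were kept. Results are given without B6C3F1/J control replicate 8 and C57BL6/J control replicate 6 as well. Where only values without those 2 are given, the effect of adding them back is stated if it changed a call or the sign of a CR or hybrid difference.

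The members separated sharply in B6C3F1/J control replicate 8 and C57BL6/J control replicate 6. Stx1a, the plasma membrane syntaxin, was at 7.46 in C57BL6/J control replicate 6, against 9.60 to 9.96 in the other 7 arrays of its group, a 5.03-fold lower signal. In B6C3F1/J control replicate 8 it was at 7.30, against 9.41 to 10.14, which is 5.08-fold lower. No other member departed as far in either array. Syn1 was 2.08-fold lower in the C57BL6/J array and 1.85-fold lower in the B6C3F1/J array, and Syt1 was 1.84-fold and 1.63-fold lower in the same order. Syp was lower by 0.64 and 0.37 on the log2 scale and Syn2 by 0.51 and 0.44, and both genes stayed below every other array of the group. Rab3a was only slightly below its group, at 10.28 against 10.38 to 10.55 in C57BL6/J and at 10.47 against 10.50 to 10.67 in B6C3F1/J. Snap25 was at 12.76 in C57BL6/J control replicate 6, against 12.86 to 13.01 in its group, and at 12.96 in B6C3F1/J control replicate 8, within the 12.94 to 13.07 of the other arrays. Vamp1 went the other way. It was at 10.55 in the C57BL6/J array, against 10.24 to 10.50, and at 10.96 in the B6C3F1/J array, against 10.08 to 10.83, so it stood above every other array of its group in both. With 1 array in each group these are descriptions with no test.

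**Figure D1:**
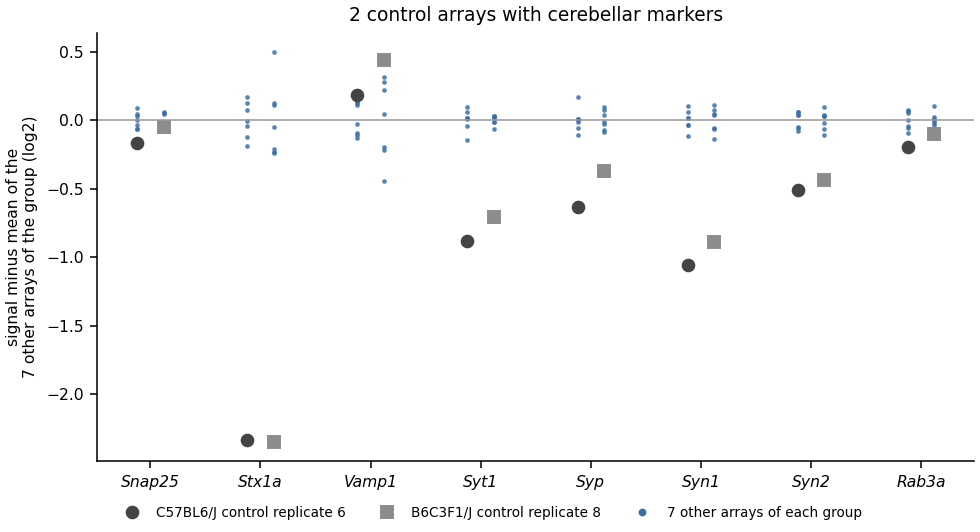
Signal of each member in the 2 control arrays that carry cerebellar markers, minus the mean of the 7 other arrays of the same strain and diet (log2), with the other arrays as small points around 0. Stx1a lies 2.33 and 2.34 below its group, Syn1 and Syt1 lie 0.70 to 1.06 below, Snap25 and Rab3a stay within 0.20 of 0, and Vamp1 lies above 0 in both.

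Across the 7 strains no member was called higher or lower with CR. Tested with limma over all 19938 genes with Benjamini-Hochberg adjustment, 0 of 8 passed an adjusted p of 0.05, where 2.34% of all genes did (1.17% higher and 1.17% lower). At an unadjusted p of 0.05, 1 of 8 passed, against 14.3% of all genes. Without the 2 arrays 0 of 8 passed again, where 4.36% of all genes did (1.75% higher and 2.61% lower), and 3 of 8 passed unadjusted, Snap25, Syp and Syn1, against 17% of all genes. For 8 genes, a count of 0 called is near these shares of all genes and says nothing particular of the members. The difference was above 0 for 4 of 8 members with all arrays and for 2 of 8 without the pair, where 50.7% and 51.2% of all genes were above 0. The median CR difference over the members was 0.00064 with all arrays and -0.022 without the 2, and over all genes it was 0.00054 and 0.00092. Since levels come from bulk tissue, fewer cells of a type and less RNA per cell cannot be told apart in any of these values.

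Among the 3 SNARE members, Snap25 had the largest CR difference with all arrays. Its signal in the 56 CR mice had a lowest of 12.81, a median of 13.09 and a highest of 13.33, and in 56 control mice these were 12.76, 13.06 and 13.30. The diets overlapped almost wholly. CR minus control was 0.039 ± 0.016 (SE), or 0.566% to 4.99% higher signal by its 95% interval, with a higher mean under CR in 5 of 7 strains (adjusted p = 0.19). Leaving out the 2 arrays gave 0.035 ± 0.016 (adjusted p = 0.204). Stx1a ran between 8.89 and 9.97 in CR mice with a median of 9.64, and between 7.30 and 10.14 in control mice with a median of 9.72. The lowest control values are the 2 arrays with cerebellar markers, and the sign of the Stx1a difference depended on them: CR minus control was 0.0041 ± 0.070 with all arrays (adjusted p = 0.99) and -0.079 ± 0.040 without the 2 (adjusted p = 0.298), with a lower mean under CR in 6 of 7 strains. Vamp1 differed by 0.012 ± 0.035 with all arrays (adjusted p = 0.937) and by 0.023 ± 0.034 without the 2 (adjusted p = 0.824). Its interval without the 2 arrays ran between a 3.12% lower and a 6.51% higher signal under CR.

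The calcium sensor Syt1 had a median of 12.88 in CR mice (12.53 to 13.00) and 12.92 in control mice (12.06 to 13.07). The CR difference was 0.0049 ± 0.023 with all arrays (adjusted p = 0.962) and -0.023 ± 0.012 without the 2 (adjusted p = 0.334), so its sign also depended on them. The vesicle protein Syp came nearest to the threshold without the 2 arrays, while with all arrays Snap25 did (adjusted p = 0.19). Over all arrays Syp had a lowest of 11.57, a median of 11.77 and a highest of 12.004 in CR mice, and 11.12, 11.80 and 12.02 in control mice. The groups overlapped over nearly their whole range. The difference was -0.029 ± 0.020 with all arrays (adjusted p = 0.57). It was -0.047 ± 0.016 without the 2 arrays, with an interval of -5.23% to -1.07% (adjusted p = 0.0682). The mean was then lower under CR in 7 of 7 strains, as it was for 2.6% of all genes, and with all arrays it was lower in 6 strains (2.31% of all genes were lower in 7).

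The reserve pool proteins and Rab3a had small differences. Syn1 differed by -0.0056 ± 0.030 with all arrays (adjusted p = 0.968) and by -0.040 ± 0.018 without the 2 (adjusted p = 0.211). Syn2 differed by -0.0028 ± 0.024 and by -0.020 ± 0.021 (adjusted p = 0.981 and 0.721). Rab3a differed by -0.015 ± 0.014 with all arrays (adjusted p = 0.707) and by -0.021 ± 0.014 without the 2 (adjusted p = 0.5), its mean again being lower under CR in 7 of 7 strains. Over the 8 genes without the 2 arrays, the 95% intervals reached at most 10.4% lower, for Stx1a, and 6.51% higher, for Vamp1.

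**Figure D2:**
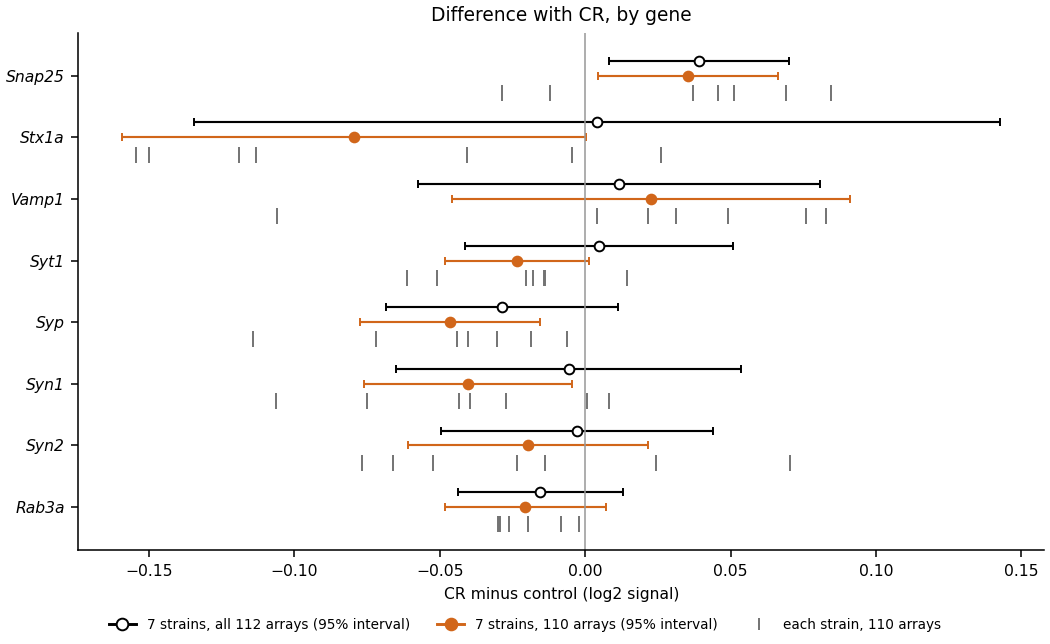
CR minus control (log2 signal) for each member as the mean of 7 within-strain differences with its 95% interval, for all 112 arrays (open circles) and for 110 arrays (filled circles), with the 7 strains as ticks below. Intervals for Stx1a, Syt1 and Syn1 shorten once the 2 arrays are left out, and the 7 ticks of Syp and of Rab3a all lie below 0.

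Marker genes of cell types were read in the same way, first without the 2 arrays. Of 9 markers of cortical excitatory neurons, 0 had a higher mean under CR and 0 passed the test, with a median difference of -0.041. With all arrays 7 of 9 were higher under CR, with a median of 0.060 and 0 passing. The mean over the 9 markers ran between 9.41 and 10.29 in CR arrays and between 9.77 and 10.33 in control arrays. Over 12 genes of all neurons, 5 were higher, 0 passed, and the median was -0.014. Of 7 choroid plexus markers 7 were higher and 0 passed, with a median of 0.11. Among 12 cerebellar markers 7 were higher (median 0.0020), among 7 striatal markers 4 (median 0.014), and 0 passed in either list. Among 9 markers of inhibitory interneurons 4 were higher and 0 passed (median -0.0078), and among 8 of thalamus 6 were higher and 0 passed (median 0.063). With all arrays the median turned sign for the genes of all neurons (0.010), for interneurons (0.015) and for the cerebellar markers (-0.14).

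Some markers of non-neuronal cells were called without the 2 arrays. Of 8 astrocyte markers Gja1, a gap junction gene, rose (0.10, adjusted p = 1.61e-05) and S100b fell by 0.087 (adjusted p = 0.029). Of 8 endothelial markers Pecam1 and Flt1 fell, by 0.061 and 0.069. Of 9 oligodendrocyte markers Opalin fell by 0.22 (adjusted p = 0.0068), and of 8 microglial markers Trem2 fell by 0.050 (adjusted p = 0.0393), with 1 of the 8 higher under CR. The single blood marker measured was at -0.025 and did not pass. With all arrays Gja1 and S100b were called again, Tek, an endothelial receptor, rose (0.086, adjusted p = 0.0443), and the other 4 were not called. The microglial median then turned sign, at 0.015 with 5 of 8 higher, against -0.022 without the 2. With the mean of the 9 excitatory markers as a covariate and without the 2 arrays, an alternative added after the values were seen, Snap25 was called higher under CR at 0.047 (adjusted p = 0.0137) and Syp was at -0.037 (adjusted p = 0.105). Of all 19938 genes, 1111 were called in that fit. The covariate fit tests no cause, and whether tissue composition had a part in any of these values was not tested.

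Within single strains no member was called with CR. Of 56 gene and strain combinations, 0 passed the limma test with Benjamini-Hochberg adjustment within each strain, where 0.0272% of such tests passed over all genes (0.114% without the 2 arrays, where 0 of 56 passed too). Since so few tests passed over all genes, this count says nothing particular of the members. Unadjusted, 1 of 56 passed with all arrays, against 6.76% over all genes. It was Snap25 in 129S1/SvImJ, at 0.085 ± 0.041 (adjusted p = 0.781). The 8 CR mice of that strain had 13.05 to 13.33 with a median of 13.17, and the 8 control mice 12.97 to 13.30 with a median of 13.10, so the groups overlapped. With the 2 arrays left out 3 of 56 passed unadjusted, against 8.2% over all genes, the added ones being Syp in C57BL6/J at -0.11 (adjusted p = 0.18) and Syn1 in C57BL6/J at -0.11. Syp had 11.58 to 11.72 with a median of 11.65 in 8 CR mice, against 11.65 to 11.93 with a median of 11.76 in 7 control mice of C57BL6/J, so the groups shared a narrow zone at 11.65 to 11.72. The methods' t-test, run on the log2 values and, since the methods name the raw scale, also on linear values, gave 0 of 8 members past an unadjusted threshold of 0.05 in every strain with all arrays. Whether the CR difference varied between strains was tested with the strain by diet interaction: 0 of 8 members passed (0.0401% of all genes), and without the 2 arrays 0 of 8 (0.0502%). Unadjusted, 0 of 8 passed either way, where 6.11% of all genes did with all arrays and 8.37% without the pair.

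Levels of several members differed between strains. Among CR mice 6 of 8 members differed between strains by limma's moderated F test, where 56.8% of all genes did, and among control mice 5 of 8, where 65.4% did. Without the 2 arrays 6 of 8 differed in CR mice (64.1% of all genes) and 6 of 8 in control mice (71.7%), with Syn2 added at an adjusted p of 0.0196. A share near the background says nothing particular of these genes. The ranges were narrow: without the 2 arrays the highest and lowest strains differed by 0.31 log2 or less in each diet for every member. Sequence differences between strains under the probes were not examined. In the next paragraphs, on strains and on the hybrid, values leave out the 2 arrays unless stated, so n = 7 for C57BL6/J and B6C3F1/J control and n = 8 for every other group.

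**Figure D3:**
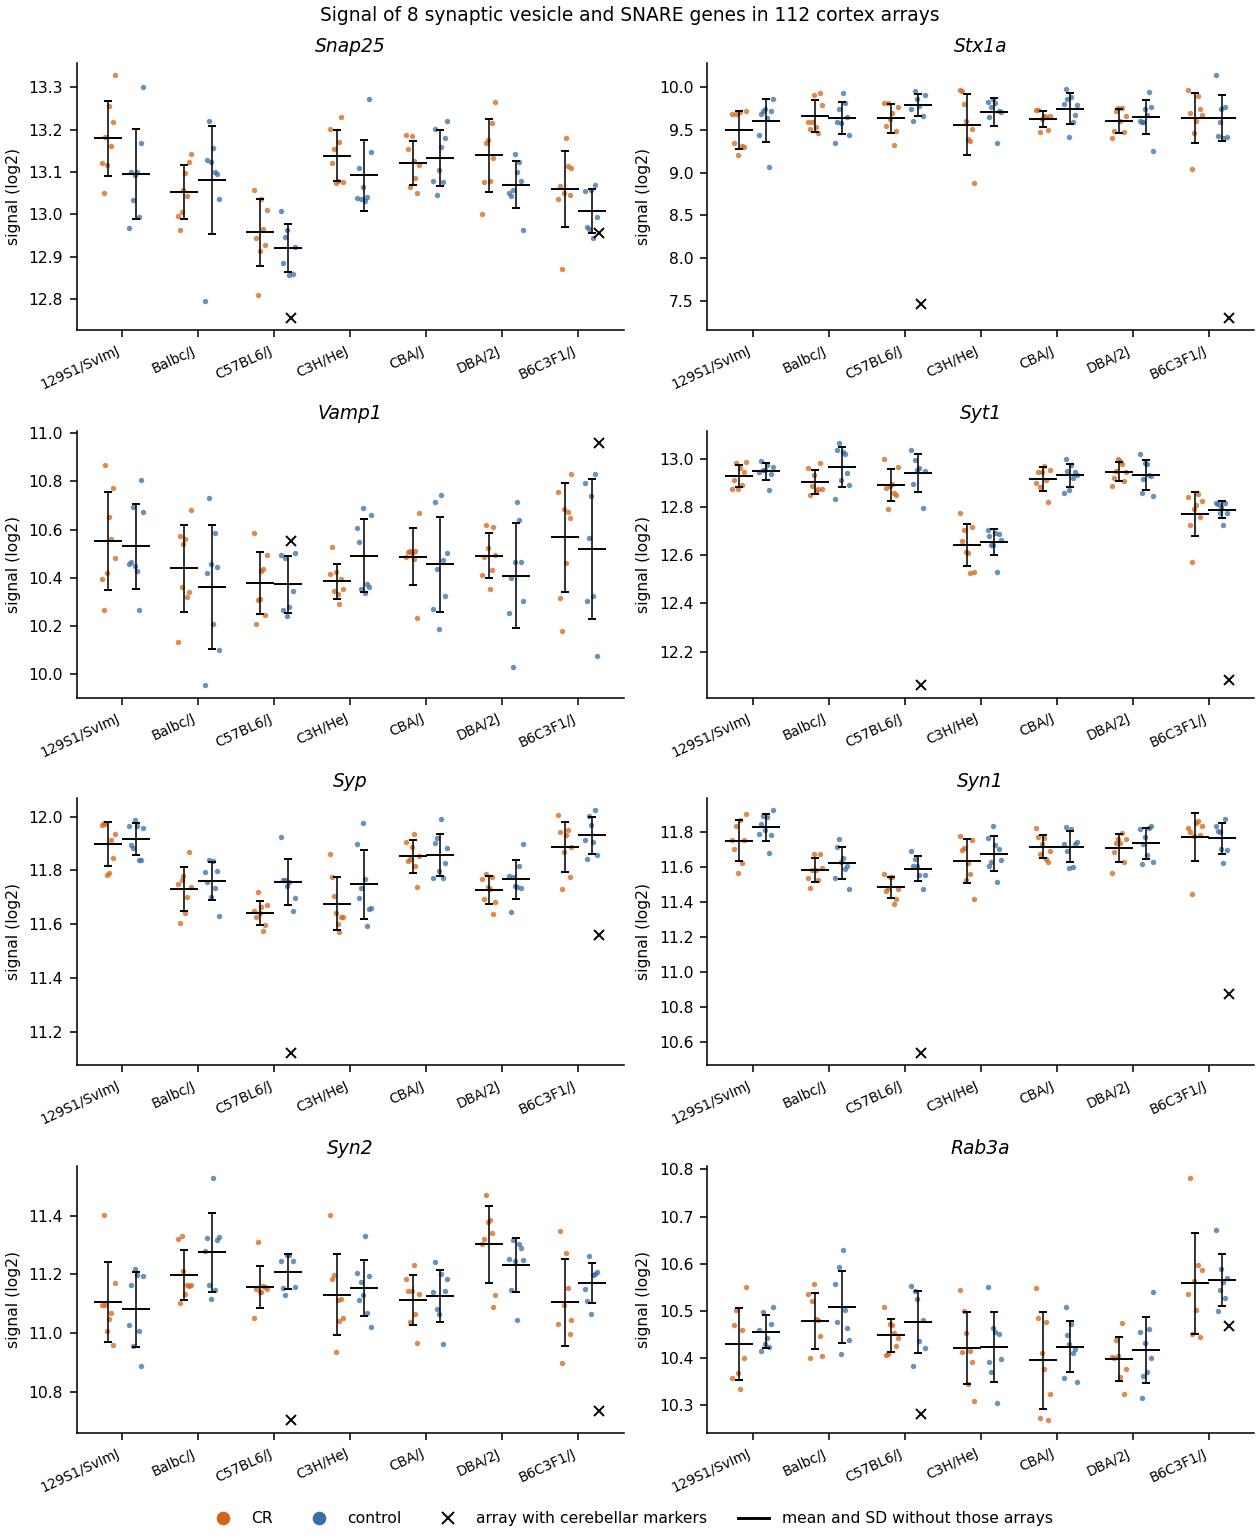
Signal (log2) of the 8 measured members in each of 112 arrays by strain, CR left (orange) and control right (blue), with the mean and SD of each group and crosses for the 2 control arrays with cerebellar markers, which are outside the means. Syt1 sits lowest in C3H/HeJ with B6C3F1/J next, Snap25 and Syn1 sit lowest in C57BL6/J, and CR and control overlap in every strain.

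Syt1 showed the clearest strain pattern, and 75.2% of its variance over 110 arrays lay between strains, against 27.1% for the median gene. Among CR mice its mean was 12.95 in DBA/2J, 12.93 in 129S1/SvImJ, 12.92 in CBA/J, 12.90 in Balbc/J, 12.89 in C57BL6/J, 12.77 in B6C3F1/J and 12.64 in C3H/HeJ (SD 0.04 to 0.09). Among control mice it was 12.97 in Balbc/J, 12.95 in 129S1/SvImJ, 12.94 in C57BL6/J, 12.93 in DBA/2J and CBA/J, 12.79 in B6C3F1/J and 12.66 in C3H/HeJ (SD 0.03 to 0.08). Of 21 strain pairs 11 differed in each diet, where 24.3% of gene and pair tests passed in CR mice and 27.3% in control mice. With all arrays it was 6 pairs in CR mice (20.1%) and 9 in control mice (23.7%). The 5 higher strains formed a plateau with no difference between neighbours, and then came a step at the hybrid and another at C3H/HeJ, each beyond its error in both diets. Control Balbc/J mice had 12.83 to 13.07 with a median of 12.98, against 12.53 to 12.70 with a median of 12.67 in control C3H/HeJ mice, with no overlap (difference 0.31 ± 0.033, 1.24-fold, adjusted p = 1.41e-13). With all arrays the same strains were highest and lowest in control mice (adjusted p = 3.51e-05), but no neighbours differed.

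The SNAREs were more even. Mean Snap25 among CR mice was 13.18 in 129S1/SvImJ, 13.14 in DBA/2J and C3H/HeJ, 13.12 in CBA/J, 13.06 in B6C3F1/J, 13.05 in Balbc/J and 12.96 in C57BL6/J (SD 0.05 to 0.09). Among control mice it was 13.13 in CBA/J, 13.09 in 129S1/SvImJ and C3H/HeJ, 13.08 in Balbc/J, 13.07 in DBA/2J, 13.01 in B6C3F1/J and 12.92 in C57BL6/J (SD 0.05 to 0.13). No neighbours in either order differed, while C57BL6/J was lowest in both: control CBA/J mice had 13.05 to 13.22, above the 12.86 to 13.01 of 7 control C57BL6/J mice (difference 0.21 ± 0.042, adjusted p = 2.95e-05). Stx1a lay between 9.50 in 129S1/SvImJ and 9.67 in Balbc/J among CR mice (SD 0.10 to 0.36), and between 9.61 in 129S1/SvImJ and 9.79 in C57BL6/J among control mice (SD 0.13 to 0.27). No strain pair differed for it in either diet, and strain accounted for 4.70% of its variance. With the 2 arrays included the lowest control mean became that of B6C3F1/J, at 9.35 ± 0.87 (SD, n = 8), and the control range was 0.40 (adjusted p = 0.109). Vamp1 lay between 10.38 in C57BL6/J and 10.57 in B6C3F1/J among CR mice (SD 0.07 to 0.23), and between 10.36 in Balbc/J and 10.53 in 129S1/SvImJ among control mice (SD 0.12 to 0.29). None of its strain pairs differed either, and with all arrays its highest control mean was that of B6C3F1/J, at 10.57.

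Syp, an X-linked gene, had CR means of 11.90 in 129S1/SvImJ, 11.89 in B6C3F1/J, 11.85 in CBA/J, 11.73 in Balbc/J and DBA/2J, 11.68 in C3H/HeJ and 11.64 in C57BL6/J (SD 0.04 to 0.10). In control mice they were 11.93 in B6C3F1/J, 11.92 in 129S1/SvImJ, 11.86 in CBA/J, 11.77 in DBA/2J, 11.76 in Balbc/J and C57BL6/J and 11.75 in C3H/HeJ (SD 0.06 to 0.13). The same 3 strains, 129S1/SvImJ, B6C3F1/J and CBA/J, formed an upper level in both diets. The step below them was beyond its error in CR mice (CBA/J against Balbc/J, adjusted p = 0.02), and in control mice no neighbours differed. With all arrays this step did not pass (adjusted p = 0.0973), and the lowest control strain was C57BL6/J, at 11.68, with 129S1/SvImJ the highest. Syn1, which is X-linked too, was lowest in C57BL6/J in both diets, at 11.49 in CR mice and 11.59 in control mice. The other strains had 11.58 in Balbc/J to 11.77 in B6C3F1/J among CR mice, and 11.62 in Balbc/J to 11.83 in 129S1/SvImJ among control mice, with no difference between neighbours. The highest and lowest strains differed by 0.29 in CR mice (adjusted p = 5.09e-07) and by 0.24 in control mice (adjusted p = 6.22e-05). With all arrays the control range was 0.37 (adjusted p = 0.000141), between the same strains.

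Syn2 had its highest means in DBA/2J among CR mice (11.30) and in Balbc/J among control mice (11.27), and its lowest in B6C3F1/J (11.10) and 129S1/SvImJ (11.08). The remaining strains lay between 11.11 and 11.20 in CR mice and between 11.13 and 11.23 in control mice, and no neighbours differed. Rab3a was highest in the hybrid in both diets, at 10.56 in CR mice and 10.57 in control mice. Next came Balbc/J, C57BL6/J and 129S1/SvImJ in that order in both diets, at 10.48, 10.45 and 10.43 in CR mice and 10.51, 10.48 and 10.46 in control mice. With all arrays C57BL6/J control mice, at 10.45, fell just below those of 129S1/SvImJ. C3H/HeJ, DBA/2J and CBA/J closed the order at 10.39 to 10.42, and no neighbours differed. The hybrid differed from the lowest strain by 0.16 in CR mice (CBA/J, adjusted p = 0.000238) and by 0.15 in control mice (DBA/2J, adjusted p = 0.00118).

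The hybrid stands apart for a few members, and its parental strains are both in the series. As background, the hybrid bears the name of a C57BL6/J dam and a C3H/HeJ sire, so its males carry the dam's X chromosome, where Syp and Syn1 lie. Against the mean of the parents, and with all arrays, 3 of 8 members were called higher in hybrid CR mice, where 18% of all genes were called in either direction. In hybrid control mice 2 of 8 were, where 16.2% of all genes were called. Without the 2 arrays it was 3 of 8 in both diets, with 22.4% of all genes called in CR mice and 19% in control mice. None was called lower.

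Syp was 0.23 above the parental mean in CR mice (17% higher signal, adjusted p = 8.4e-05) and 0.17 above it in control mice (12.6%, adjusted p = 0.00478). Hybrid CR mice had 11.73 to 12.004 with a median of 11.91, against 11.58 to 11.72 with a median of 11.65 in C57BL6/J CR mice and 11.57 to 11.86 with a median of 11.63 in C3H/HeJ CR mice. The hybrid overlapped C3H/HeJ at its lower end and lay above every C57BL6/J mouse. In control mice without the 2 arrays it had 11.84 to 12.02 with a median of 11.91, against 11.65 to 11.93 (median 11.76) in C57BL6/J and 11.59 to 11.98 (median 11.71) in C3H/HeJ. It exceeded each parent on its own: C57BL6/J by 0.24 ± 0.041 in CR mice (adjusted p = 1.06e-06) and by 0.17 ± 0.044 in control mice (adjusted p = 0.0012), and C3H/HeJ by 0.21 (adjusted p = 2.31e-05) and 0.18 (adjusted p = 0.00039).

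Rab3a was 0.12 above the parental mean in both diets with all arrays (CR adjusted p = 0.00322, control adjusted p = 0.00734), or 8.98% in CR mice and 8.4% in control mice. Its excess without the 2 arrays was 0.12 in both diets too (CR adjusted p = 0.00176, control adjusted p = 0.00793). Hybrid CR mice had 10.44 to 10.78 with a median of 10.55, against medians of 10.45 in C57BL6/J and 10.41 in C3H/HeJ CR mice, and the ranges overlapped. It exceeded C3H/HeJ by 0.14 in each diet. Over C57BL6/J it was 0.11 higher in CR mice (adjusted p = 0.0171) and 0.089 higher in control mice, which did not pass without the 2 arrays (adjusted p = 0.0784) and passed with them (0.10, adjusted p = 0.0386). Syn1 was 0.21 above the parental mean in CR mice, with all arrays (15.9%, adjusted p = 0.0188) and without the 2 (adjusted p = 2.36e-05). In control mice the call turned on single arrays: the difference was 0.085 (adjusted p = 0.415) with all arrays and 0.13 (adjusted p = 0.0231) without the 2, and leaving out B6C3F1/J control replicate 8 alone gave 0.20 (adjusted p = 0.0189), while leaving out C57BL6/J control replicate 6 alone gave 0.019 (adjusted p = 0.818). Hybrid CR mice had 11.45 to 11.87 with a median of 11.81, against 11.39 to 11.56 with a median of 11.48 in C57BL6/J CR mice, overlapping through 1 low hybrid array. The hybrid exceeded the maternal strain C57BL6/J by 0.29 ± 0.047 in CR mice (adjusted p = 5.09e-07) and by 0.17 ± 0.050 in control mice (adjusted p = 0.00515), the 2 arrays left out. With all arrays the call over C57BL6/J held in CR mice (adjusted p = 0.00398) and was lost in control mice (0.19, adjusted p = 0.0621). Over C3H/HeJ it was 0.14 higher in CR mice (adjusted p = 0.0215) and 0.087 higher in control mice (adjusted p = 0.188) without the 2 arrays. With all arrays the first did not pass (adjusted p = 0.233) and the second was -0.025 (adjusted p = 0.866).

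Syt1 in the hybrid lay between its parents. Leaving out the 2 arrays, it was 0.12 below C57BL6/J (adjusted p = 0.00327) and 0.13 above C3H/HeJ (adjusted p = 0.0013) in CR mice, and 0.15 below C57BL6/J and 0.13 above C3H/HeJ in control mice (adjusted p = 0.000333 and 0.00123). With all arrays none of these 4 differences passed (adjusted p = 0.117 to 0.654). It differed from their mean by 0.005 ± 0.028 in CR mice and by -0.0094 ± 0.030 in control mice. Snap25 differed from the parental mean by 0.011 and 0.0014 (SE 0.035 and 0.037), and Syn2 by -0.039 and -0.011 (SE 0.047 and 0.050). Vamp1 was 0.19 above it in CR mice (adjusted p = 0.0735) and 0.087 above in control mice (adjusted p = 0.484), neither past the threshold.

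**Figure D4:**
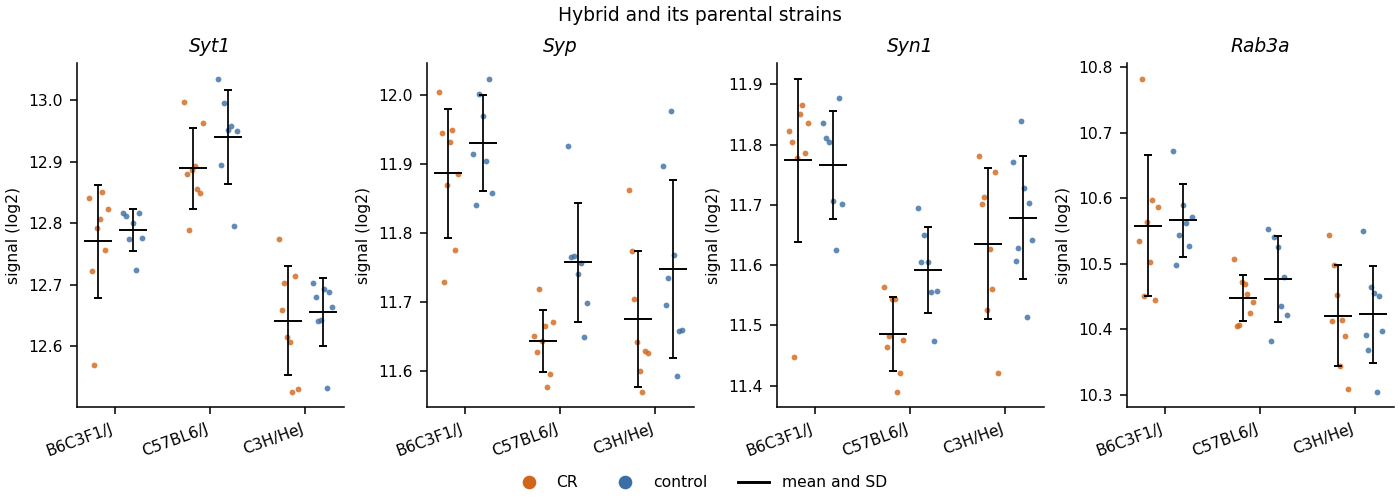
Signal (log2) of Syt1, Syp, Syn1 and Rab3a in the hybrid B6C3F1/J and its parental strains C57BL6/J and C3H/HeJ, CR left (orange) and control right (blue), each point 1 array, with the mean and SD, without the 2 arrays with cerebellar markers. Syt1 in the hybrid lies between the parents, at 12.77 and 12.79, while the hybrid means of Syp, Syn1 and Rab3a lie above those of both parents in both diets.

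Within groups the members moved together to differing degrees. Over 110 arrays, with each array's deviation from its group mean, Pearson's r between members ran between -0.27 (Vamp1 with Syn2) and 0.76 (Stx1a with Syn1, whose promoters stand above), and Syt1 with Syn1 came next at 0.75. Vamp1 with Syn2 was the only pair of members below 0. These are descriptions over arrays that share RNA source and normalization, and they carry no test. Stx1a went with the mean of the cortical excitatory markers at r = 0.87, Syn1 at 0.84 and Syt1 at 0.78, while Syn2 (0.27) and Rab3a (0.37) did so weakly. With the genes of all neurons every member had r between 0.31 and 0.49.

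The genes outside the members that tracked them most closely differed from member to member. For Stx1a they were Rtn4r (r = 0.89), the Nogo receptor, Cckbr (0.88), a cholecystokinin receptor, and Gabbr2 (0.88), a GABA-B receptor subunit, and Gabbr2 led for Syn1 too (0.84). For Vamp1 they were Pvalb (0.88), the calcium buffer parvalbumin of fast-spiking interneurons, Kcnab3 (0.86), a potassium channel subunit, and Rora (0.84), a nuclear receptor. Pvalb is itself 1 of the 9 interneuron markers. With the mean of that list Vamp1 had r = 0.19, and with the mean of the excitatory markers r = 0.59. Snap25 tracked Mapk10 (0.78), a Jun kinase, and Vsnl1 (0.76), a neuronal calcium sensor, and Septin6 (0.77), a septin, Vsnl1 (0.77) and Mef2c (0.77), a transcription factor, were beside Syt1, Mef2c being also 1 of the excitatory markers. Syn2 went with Ccn3 (0.79) and the adhesion gene Chl1 (0.76), Syp with Ak5 (0.69), an adenylate kinase, and Rab3a with Fam219a (0.69) and Thy1 (0.68), a neuronal surface protein.

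A wider list of 109 genes of the vesicle cycle, chosen by role, placed the members among their partners, and 103 of them were measured. Across strains 3 rose and 1 fell with CR with all arrays, and 3 rose and 6 fell without the 2. Over all genes 1.17% rose and 1.17% fell with all arrays, and 1.75% rose and 2.61% fell without the 2, and the counts by role are to be read against the same shares. The median difference was -0.0028 and -0.010, where over all genes it was 0.00054 and 0.00092. At an unadjusted p of 0.05, 25 of 103 passed with all arrays and 35 without the 2, where 14.3% and 17% of all genes did. In the SNARE group 2 of 9 rose. Snap23, the relative of SNAP-25 that most non-neuronal cells use, averaged 9.53 in CR mice and 9.43 in control mice (difference 0.10 ± 0.025, adjusted p = 0.00899), and Vamp3, an endosomal synaptobrevin, 8.69 and 8.60 (0.081 ± 0.021, adjusted p = 0.0185). Both were higher in 7 of 7 strains and were called without the 2 arrays too (adjusted p = 0.00454 and 0.00785). Stx3 was at -0.067 (adjusted p = 0.0506) and Vamp4 at 0.065 (adjusted p = 0.186), so neither passed.

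Among 18 genes of vesicle endocytosis, 1 fell with all arrays and 3 fell without the 2. Pacsin1, which recruits dynamin to membranes, averaged 10.55 in CR mice and 10.60 in control mice with all arrays (-0.049 ± 0.013, adjusted p = 0.0179). It was at -0.055 without the 2 arrays, where Ap2a1, a subunit of the clathrin adaptor AP-2, was at -0.068 ± 0.013 (adjusted p = 0.00028) and Dnm1, the dynamin that severs vesicles, at -0.055 ± 0.016 (adjusted p = 0.0338). Each of the 3 was lower in 7 of 7 strains. With all arrays Dnm1 (adjusted p = 0.101) and Ap2a1 (adjusted p = 0.104) did not pass, and Sh3gl2, endophilin A1, was at -0.080 (adjusted p = 0.102).

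Of 18 genes of transmitter loading, 1 rose: Atp6ap2, an accessory subunit of the vesicular proton pump, averaged 11.21 in CR mice and 11.10 in control mice (0.10 ± 0.024, adjusted p = 0.00675). The pump subunits Atp6v1d (0.067) and Atp6v1c1 (0.061) and the glutamate transporter Slc17a6 (0.19) did not pass. In the other role groups no gene passed with all arrays. When the 2 were left out, Syt7, a calcium sensor of slow release, fell by 0.065 (adjusted p = 0.0322), Stxbp5, a syntaxin-binding brake on SNARE assembly, fell by 0.045 (adjusted p = 0.0268), and Dnajc5, a vesicle chaperone that acts on SNAP-25, fell by 0.030 (adjusted p = 0.0469). Of 15 active zone genes 0 passed, nearest being Ppfia2 at -0.049 (adjusted p = 0.134), Ppfia4 at -0.11 (adjusted p = 0.143) and Rims4 at -0.059 (adjusted p = 0.184). Of the synapsin and Rab3 partners 0 passed as well, with Rab3gap1 at 0.042 (adjusted p = 0.203) and Madd at -0.041 (adjusted p = 0.275).

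**Figure D5:**
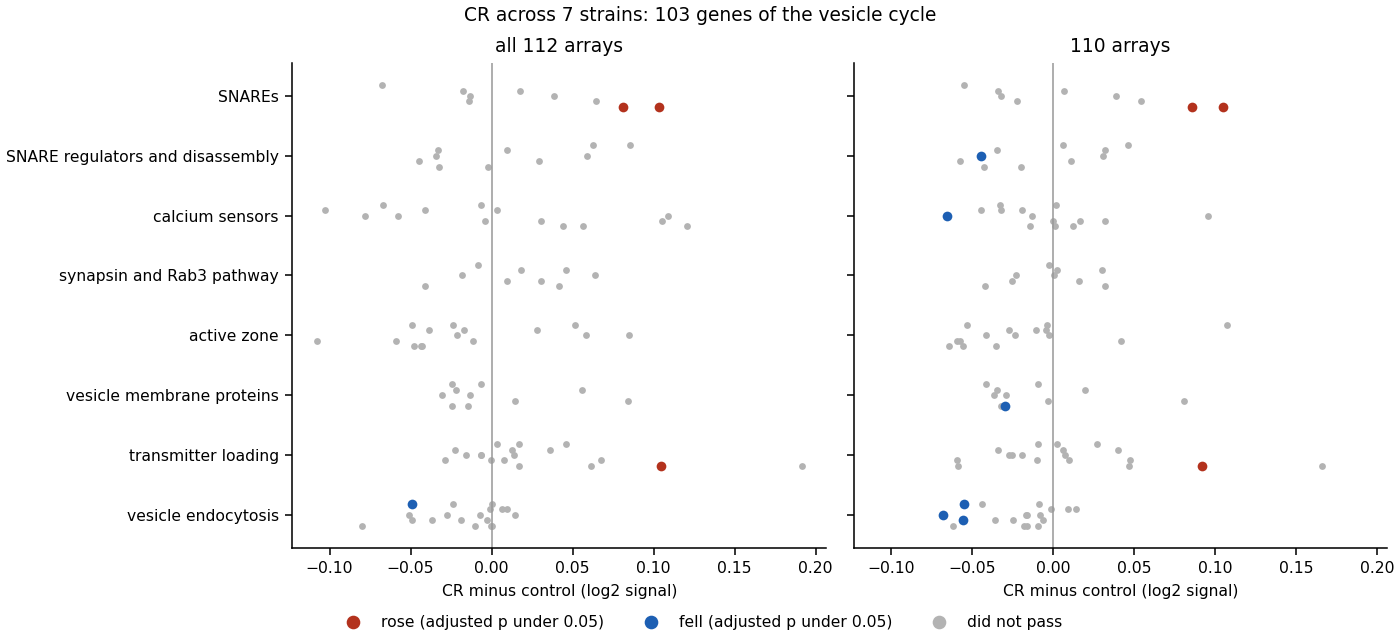
CR minus control across 7 strains (log2 signal) for 103 genes of the vesicle cycle by role, with all 112 arrays on the left and 110 arrays on the right, red where a gene rose, blue where it fell and grey where it did not pass. The red points are Snap23, Vamp3 and Atp6ap2 in both, and the blue points number 1 on the left and 6 on the right.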

How the data were processed

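Total RNA of each cortex was labelled and hybridised to an Affymetrix mouse Gene 1.0 ST array. Per the labels the authors made the deposited log2 signal with RMA in Affymetrix Expression Console; the versions and the genome build were not stated in anything read here. RMA quantile-normalizes arrays and compresses high and low signal, so differences of bright genes may be understated. The deposited table held 35556 probe sets, of which 21789 had 1 gene symbol, 1621 several and 12146 none. The probe set of highest mean stood for a gene. Array medians lay between 7.14 and 7.26, and the number of arrays limits the precision.

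One mean per strain and diet group was fitted with limma 3.58.1 in R 4.3.3 (lmFit, eBayes, two-sided, 98 residual degrees of freedom), with Benjamini-Hochberg adjustment over all 19938 genes (for strain pairs, over genes and pairs together). The CR effect across strains is the mean of the 7 within-strain differences. Members, lists and tests were chosen with earlier results of these data known. Each mouse gave 1 array, and no arrays held identical values. Named genes of the wider list were taken per role by smallest p of the CR effect, called ones first, or by the widest range of control strain means, and those that track a member by Pearson's r of deviations. The markers named were the lists for cerebellum, cortical excitatory neurons, striatum, choroid plexus, inhibitory interneurons, thalamus, astrocytes, oligodendrocytes, microglia, endothelium, blood and genes of all neurons. Alternatives were median centring, quantile normalization, a filter on dim genes, other variance models, array weights, covariates, a replicate block, and leaving out arrays or strains. The fit was tested on simulated data. Figures were drawn with matplotlib.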

Additional observations from a re-analysis of the deposited data

Results flagged for a closer look

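A sample was picked out where it lay far outside the other 7 of its strain and diet by Dixon's ratio, for which chance picks about 1 in 20 groups. Of 112 combinations of member and group, 20 were picked out, and 10 of these came from the 2 control arrays with cerebellar markers. C57BL6/J control replicate 6 was the lowest of its group for Stx1a (7.46), Syt1 (12.06), Syp (11.12), Syn1 (10.54) and Syn2 (10.70), and B6C3F1/J control replicate 8 was the lowest for Stx1a (7.30), Syt1 (12.08), Syp (11.56), Syn1 (10.87) and Syn2 (10.73).

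The other 10 came from 7 arrays. B6C3F1/J CR replicate 3 was the lowest of its group for Snap25 (12.87), Syt1 (12.57) and Syn1 (11.45), and its mean over the cortical excitatory markers was 9.62, against 10.10 to 10.29 in the other 7 arrays, with striatal markers at 11.13 against 8.97 to 10.57. C3H/HeJ control replicate 6 was the lowest for Stx1a (9.35) and Syt1 (12.53), with excitatory markers at 9.88 against 10.05 to 10.20 and striatal markers at 10.93 against 9.74 to 10.74. Balbc/J control replicate 1 was the lowest for Snap25 (12.79), with excitatory markers at 9.80 against 9.96 to 10.33 and striatal markers at 10.76 against 8.60 to 10.56. 129S1/SvImJ control replicate 6 was the lowest for Syt1 (12.87), with excitatory markers at 9.77 against 10.03 to 10.27, thalamic markers at 8.22 against 7.84 to 8.06, and striatal markers at 10.66, within the 8.39 to 11.10 of the others. CBA/J CR replicate 7 was the lowest for Vamp1 (10.23), with excitatory markers at 9.89 against 9.93 to 10.20. C57BL6/J CR replicate 3 was the highest for Syn2 (11.31), with choroid plexus markers at 8.93 against 7.16 to 7.98. B6C3F1/J CR replicate 2 was the highest for Rab3a (10.78), with excitatory and striatal markers inside the range of its group. The part of these markers in the values was not tested.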

How the results depend on the processing

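Across the 24 alternatives for the CR effect across strains, the count of members called stayed at 0 except under 2. Both were chosen after seeing the data and left out the 2 arrays. Array weights gave 1 of 8 (Syp, -0.046, adjusted p = 0.0429), where 1251 of 19938 genes were called. The excitatory marker covariate gave 1 of 8 (Snap25, 0.047, adjusted p = 0.0137), where 1111 of 19938 genes were called. For 8 genes, a count of 1 beside these says nothing particular of the members. Over all alternatives the adjusted p of Syp ran between 0.0429 and 0.723 and that of Snap25 between 0.0137 and 0.419. Within strains 0 were called under all 18 alternatives, and for the interaction 0 under all 23. The strain test called 5 to 7 members in CR mice and 4 to 7 in control mice, and the hybrid test 3 to 4 in CR mice and 2 to 3 in control mice. With all arrays the strain test called 56.8% and 65.4% of all genes in CR and control mice, and the hybrid test 18% and 16.2%. Without the 2 arrays these shares were 64.1%, 71.7%, 22.4% and 19%. Shares under the other alternatives are not given, so these ranges say nothing particular of the members. A single value was called with the opposite sign: Stx1a in hybrid CR mice was at -0.14 (adjusted p = 0.0228) under the excitatory covariate without the 2 arrays, against 0.041 in the fit reported; the cause was not tested. Some strain calls were lost when 1 strain was left out, in fits that kept the 2 arrays. Rab3a lost its call without B6C3F1/J in both diets, and Syt1 lost its call in CR mice without C3H/HeJ. Syn1 lost its call without C57BL6/J in both diets, and Snap25 did so in control mice. Syn2 in CR mice lost its call without DBA/2J and also without CBA/J. Leaving out a strain was not repeated without the 2 arrays. Strain pairs without the 2 arrays still set B6C3F1/J below DBA/2J for Syt1 in CR mice (adjusted p = 9.18e-06). They also set Balbc/J below B6C3F1/J for Syn1 in CR mice (adjusted p = 0.00102). Over all genes the count called for CR across strains was 467, and it was 870 without the 2 arrays, 1193 with array weights, 777 and 733 with the pan-neuronal or cerebellar markers as a covariate, and 175, 204, 246 and 306 without CBA/J, 129S1/SvImJ, DBA/2J or Balbc/J. Same-numbered CR and control arrays of a strain correlated above 0.1 in 31 of 56 pairs and not in the other 25, and 14 of 56 correlated best with their own number; since not every pair passed 0.1, the number was not taken to pair mice. With the replicate block 0 of 8 members were called across strains, 0 of 56 within strains and 0 of 8 for the interaction, and 550 of all genes. The methods' t-test gave 114 to 726 genes per strain at its threshold of 0.01 and, after Benjamini-Hochberg adjustment, 19 in CBA/J and 0 in the other strains; on linear values, added after seeing the data, it gave 116 to 727, and 17 in CBA/J.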

Other observations

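Over the vesicle cycle list the median range of control strain means was 0.29 with all arrays, against 0.24 in the members and 0.27 over all genes. Without the 2 arrays it was 0.27, against 0.19 in the members and 0.27 over all genes. Of 103 genes, 70 differed between strains in control mice with all arrays (68% against 65.4% of all genes), and 76 without the 2 (73.8% against 71.7%). The genes named below were picked per role for the widest range among called genes, so their width follows from that choice. The widest range was that of Slc17a6, the vesicular glutamate transporter of thalamic and brainstem neurons, at 8.34 in B6C3F1/J and 7.56 in CBA/J (adjusted p = 0.00463). In endocytosis, Ap2s1, the small AP-2 subunit, averaged 10.22 in Balbc/J and 9.55 in 129S1/SvImJ, and Sh3gl2 ran the other way, at 11.73 in 129S1/SvImJ and 11.08 in Balbc/J.

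The pump subunit Atp6v1h averaged 10.23 in C57BL6/J and 9.64 in CBA/J. Syn3, the third synapsin, was highest in 129S1/SvImJ (9.70) and lowest in C57BL6/J (9.12), as Syn1 was. Complexin 1 (Cplx1), which clamps assembled SNAREs, was highest in B6C3F1/J (11.81) and lowest in C57BL6/J (11.41), and Syt3 was highest in DBA/2J (8.71) and lowest in C57BL6/J (8.42). All of these differed between strains among CR mice as well, and none of these ranges is set against CR.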
